A study of Mus musculus with 4 samples.

Results

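Natural killer (NK) cells act on infected and malignant cells by killing them and by releasing cytokines and chemokines. The 10 genes described here encode messengers of these kinds: the cytokines Ifng, Tnf, Csf2, Lta, Ltb and Flt3l, and the chemokines Xcl1, Ccl3, Ccl4 and Ccl5. They were chosen by name, and their members in the data were the distinct m6A peaks whose assigned Ensembl gene was 1 of these 10. All 10 genes had a peak. Together they held 16 of the 20727 distinct peaks, which were assigned to 12351 genes in all. The peaks came from methylated RNA immunoprecipitation sequencing (MeRIP-seq), in which fragments of poly(A) RNA bound by an antibody against N6-methyladenosine (m6A) are sequenced beside unselected ones. There were 4 libraries from splenic NK cells of wild-type C57BL/6 mice, of which 2 were m6A immunoprecipitates and 2 were input RNA without antibody. In both groups the cells had been amplified in the living mouse by a plasmid that makes IL-15 (pLIVE-IL-15) and sorted by flow cytometry. By the age range in the methods of the study the mice were young, up to early adulthood, and how many stood behind each library is not given in the sources used here.

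The list gave each peak 1 fold enrichment, the ratio of immunoprecipitated to input reads, and the log10 of 1 peak-calling p-value, both pooled over the libraries. No value stood for a single library, so neither the depth nor the spread between replicates is known, and all values below are descriptions of 1 pooled list. Positions are those of the mouse genome GRCm38.

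m6A is an internal mark of messenger RNA that is written by a complex around METTL3, usually at the adenosine of a DRACH sequence, and is read by YTH domain proteins that influence the decay and translation of the RNA. It is known to gather around stop codons and in 3′ untranslated regions (UTRs). Messenger RNAs of cytokines are known for a further element of the 3′ UTR, the AU-rich element built from ATTTA pentamers, through which proteins such as tristetraprolin speed their decay.

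The sequences below show the candidate methylation site of each gene within its peak of lowest p-value, so that the letters under each peak can be read beside its position. They are taken from the GENCODE transcripts and run 5′ to 3′ on the strand of the gene. Capitals mark a DRACH site (D stands for A, G or T; R for A or G; H for A, C or T), and where a peak held sites with a GGAC core the one nearest the peak centre is shown.
Ifng, chr10:118445546-118445570, + strand, 3′ UTR: tgggggtgggGGACAgccaagcggc
Tnf, chr17:35199620-35199644, - strand, 3′ UTR: gtgtcctggaGGACCcagtgtggga
Csf2, chr11:54247271-54247287, - strand, 3′ UTR: taaattattaAAACTtt
Lta, chr17:35205279-35205303, - strand, 5′ UTR: ccttcgactgAAACAgcagcatctt
Ltb, chr17:35196088-35196112, + strand, coding sequence: ccgacatggtGGACTacaggagagg
Flt3l, chr7:45136096-45136120, - strand, coding sequence: tatgagcccgAGACCtgccctcctg
Xcl1, chr1:164931923-164931947, - strand, coding sequence: caccaaacgaGGACTaaaaatttgt
Ccl3, chr11:83648101-83648125, - strand, 3′ UTR: ccacatcgagGGACTcttcacttga
Ccl5, chr11:83525778-83525794, - strand, 3′ UTR: tcagatgcaaGGACAaa
The peak of Ccl4 is not shown by a single run of the genome because its site nearest the centre, TGACC, lay across an exon junction. The peaks of Csf2, Lta, Flt3l and Ccl4 held no GGAC core, while those of the other 6 genes did.

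AU-rich stretches are shown for the genes with more than 1 ATTTA pentamer close together in the 3′ UTR, with each pentamer in capitals.
Ifng, chr10:118445335-118445364, + strand, inside a peak: ATTTAttaatATTTAaaactATTTAtatgg
Tnf, chr17:35199676-35199705, - strand, inside a peak: ATTTAttATTTATTTAttATTTATTTAttt
Csf2, chr11:54247320-54247349, - strand, partly inside a peak: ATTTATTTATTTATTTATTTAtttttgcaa
Lta, chr17:35203407-35203436, - strand, outside any Lta peak: ATTTAtggagagaaaagttaagttATTTAt
Ccl3, chr11:83648065-83648094, - strand, inside a peak: ATTTAATTTAatcctattggtttaatacta

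Most peaks of these genes combined a modest fold enrichment with a low p-value. Fold enrichments ran from 1.07 to 9.96 with a median of 1.88, against a median of 2.66 over all peaks (interquartile range 1.73 to 9.48). The log10 p had a median of -10.2, against -4.10 over all peaks. A peak was present in 10 of 10 genes, where 46.3% of 21951 protein-coding genes had one. A p-value under 0.001 was reached by 13 of 16 peaks, against 61.5% of all peaks. A fold enrichment of at least 5 was found in 4 of 16 peaks (25%), against 34.6% of all peaks. By gene, 4 of 10 had such a peak, near the 43.4% of all protein-coding genes with a peak. The 4 genes were Csf2, Lta, Ltb and Flt3l, and no chemokine was among them.

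**Figure D1:**
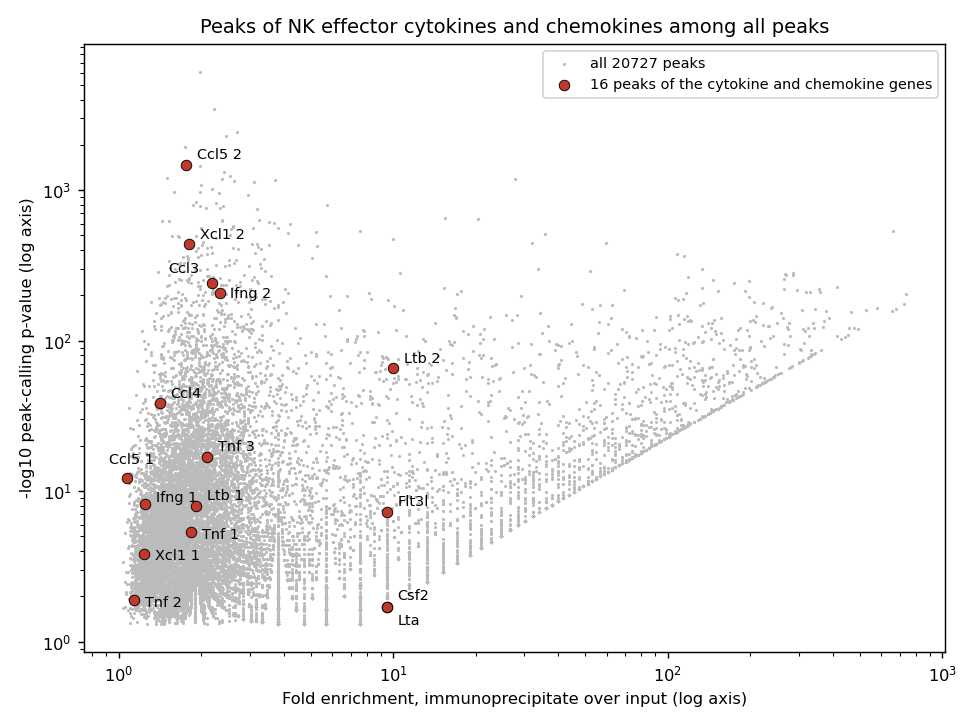
Fold enrichment of immunoprecipitate over input (horizontal, log axis) against the negative log10 of the peak-calling p-value (vertical, log axis) for all 20727 peaks in grey and the 16 cytokine and chemokine peaks in red, numbered along each gene as in the peak list. Among the 16 red points, those of lowest p-value, led by Ccl5 with a log10 p of -1480, sit at fold enrichments near 2, whereas Csf2 and Lta share a point at 9.48 near the lower edge.

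Ifng (ENSMUSG00000055170, chr10:118441046-118445892, + strand) encodes interferon-γ, the cytokine by which NK cells activate macrophages. It had 2 peaks. The stronger, chr10:118445216-118445892, had a fold enrichment of 2.33 at a log10 p of -208, which ranked 186 of 20727 by p-value. It covered all 631 nt of the 3′ UTR and 46 nt of coding sequence in exon 4, with its centre 293 nt past the stop codon. The other peak, chr10:118441046-118442505, lay over 266 nt of exons 1 and 2 from the transcript start. Its fold enrichment was 1.25 and its log10 p -8.19. Both ends of the Ifng transcript thus lay in peaks, and 265 of its 1208 nt lay in neither. The weaker peak at the 5′ end shared 46 nt of Ifng exon with Gm49751, an unclassified transcript on the same strand.

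Tnf (ENSMUSG00000024401, chr17:35199381-35202007, - strand), which encodes the inflammatory cytokine tumour necrosis factor, had 3 peaks, the most of any of the 10 genes. The peak at the 3′ end, chr17:35199381-35199738, had a fold enrichment of 2.10 at a log10 p of -16.9. Its centre lay 585 nt past the stop codon, and the peak held the AU-rich stretch shown above. The peak at the 5′ end, chr17:35201858-35202007, covered 150 nt of the 5′ UTR with a fold enrichment of 1.84 at a log10 p of -5.35. The remaining peak, chr17:35199947-35200006, was 60 nt long and centred 168 nt past the stop codon. Its fold enrichment was 1.14, with a log10 p of -1.90. None of the 3 peaks overlapped the 708 nt of coding sequence.

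Lta and Ltb encode the lymphotoxins, which shape lymphoid tissue, and lie beside Tnf on chromosome 17. Ltb (ENSMUSG00000024399, chr17:35194439-35196320, + strand), whose product anchors the lymphotoxin complex in the membrane, had the highest fold enrichment of the 10 genes. Its peak chr17:35195934-35196320 had a fold enrichment of 9.96 at a log10 p of -65.6. This peak held the stop codon, with 213 nt of coding sequence and the whole 156 nt of 3′ UTR, and its centre lay 28 nt before the end of the coding sequence. Of all 7179 peaks with a fold enrichment of at least 5, 4.93% had a lower p-value, and their median log10 p was -3.53. A further Ltb peak, chr17:35195399-35195548, with a fold enrichment of 1.92 at a log10 p of -8.02, lay in a retained-intron transcript of the gene and off its coding transcript.

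Lta (ENSMUSG00000024402, chr17:35203165-35205351, - strand), which encodes the secreted lymphotoxin-α, had a single peak of 148 nt at the start of its 5′ UTR, chr17:35205204-35205351. Csf2 (ENSMUSG00000018916, chr11:54247271-54249667, - strand), which encodes the myeloid growth factor GM-CSF, had a single peak over the last 60 nt of its transcript, chr11:54247271-54247330. Both peaks had the same values, a fold enrichment of 9.48 at a log10 p of -1.69. This pair of values was shared by 845 peaks of the list, and a fold enrichment of 9.48 by 1024. Csf2 and Lta were therefore among the peaks of high ratio and among those of weakest p-value, with 86.7% of all peaks having a lower p-value.

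Flt3l (ENSMUSG00000110206, chr7:45129788-45136432, - strand) encodes the growth factor of dendritic cells and early lymphoid progenitors. Its peak, chr7:45136100-45136220, had a fold enrichment of 9.48 as well, but a log10 p of -7.30. It covered 101 nt of the 5′ UTR and 20 nt of coding sequence in exon 1, and all 121 nt were also exon of Gm45713, a protein-coding gene annotated on the same strand. Reads at this position cannot be assigned to 1 of the 2 genes. Further peaks assigned to other genes lay on Flt3l exons. Those of Gm45713 had fold enrichments of 26.6 over 119 nt and 1.72 over 239 nt, and that of Snord32a, a small nucleolar RNA, had 1.72 over 1075 nt with a log10 p of -361. Without the shared peak, no peak assigned to Flt3l was left, and 3 genes reached a ratio of 5.

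The chemokines, which draw other leukocytes to NK cells, had fold enrichments between 1.07 and 2.18. The 3 lowest p-values of the 16 peaks were those of Ccl5, Xcl1 and Ccl3. Ccl5 (ENSMUSG00000035042, chr11:83525778-83530518, - strand), a chemokine that attracts T cells and macrophages, held the peak that ranked 6 of 20727 by p-value, chr11:83525778-83528801. Its log10 p was -1480 at a fold enrichment of 1.76. The peak covered the whole 199 nt of 3′ UTR and 88 nt of coding sequence, and its centre lay 56 nt past the stop codon. The other Ccl5 peak, chr11:83529220-83530518, lay over 181 nt of exons 1 and 2 with a fold enrichment of 1.07, the lowest of the 16, and a log10 p of -12.2. The ranks of these peaks by p-value and by fold enrichment thus lay far apart, since 73.3% and 99.9% of all peaks had a higher fold enrichment than the first and the second.

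Xcl1 (ENSMUSG00000026573, chr1:164931644-164935527, - strand), the ligand of XCR1 on cross-presenting dendritic cells, was covered by a peak from end to end. That peak, chr1:164931644-164935527, took in all 523 nt of the transcript, with a fold enrichment of 1.81 at a log10 p of -438, rank 63. A second peak assigned to Xcl1, chr1:164934498-164934557, overlapped no Xcl1 exon. Its 60 nt were exon of Gm20743, a noncoding transcript on the opposite strand, and its fold enrichment was 1.24 with a log10 p of -3.80. The long peak shared 98 nt of Xcl1 exon with Gm20743 too. Whether the libraries kept the strand is not given in the sources used here, so reads of the 2 genes cannot be told apart in the overlap.

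Ccl3 and Ccl4, neighbours of Ccl5 on chromosome 11, encode the macrophage inflammatory proteins MIP-1α and MIP-1β. Ccl3 (ENSMUSG00000000982, chr11:83647844-83649355, - strand) had a peak over all 409 nt of its 3′ UTR and 33 nt of coding sequence, chr11:83647844-83648285. The fold enrichment was 2.18 and the log10 p -240, rank 153. Ccl4 (ENSMUSG00000018930, chr11:83662584-83664683, + strand) had its peak at the other end of the transcript. That peak, chr11:83662584-83663544, covered 241 nt of exons 1 and 2 and none of the 302 nt of 3′ UTR, with a fold enrichment of 1.41 at a log10 p of -38.5. The 2 related chemokines thus had coding sequences of the same length, 279 nt, and peaks at opposite ends.

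In all 5 genes with more than 1 peak, the peak of lower p-value was also the one of higher fold enrichment. The peaks of Ifng, Ccl3, Xcl1 and Ccl5 with the lowest p-values were among the first 1% of all peaks by p-value.

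**Figure D2:**
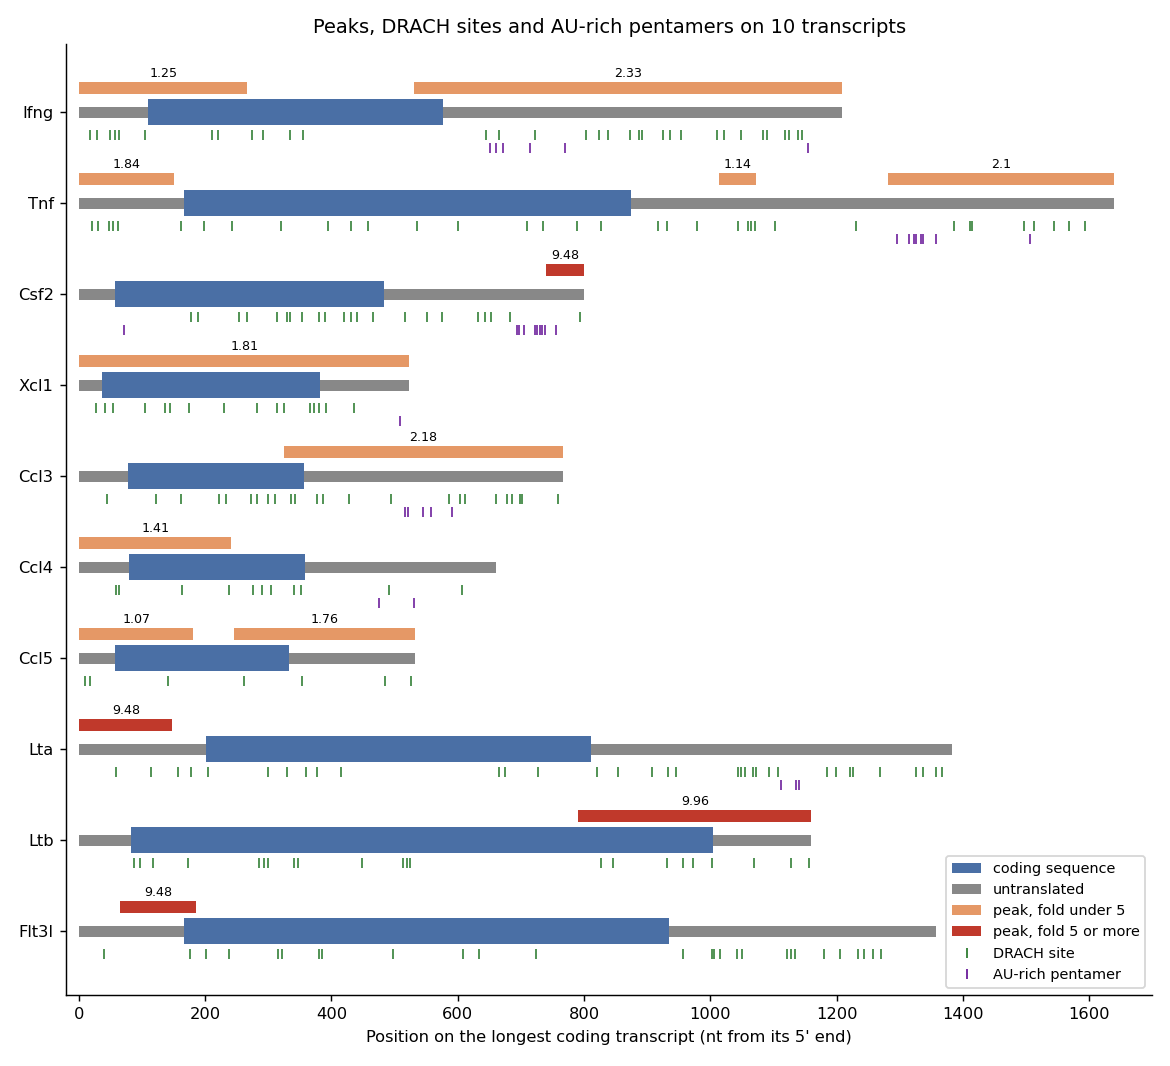
The longest coding transcript of each gene from its 5′ end (horizontal, nt), with coding sequence in blue, UTRs in grey, peaks above it labelled with their fold enrichment (red at 5 or more, orange below), DRACH sites as green ticks and ATTTA pentamers as purple ticks. Peaks reach the 3′ end in Ifng, Tnf, Csf2, Xcl1, Ccl3, Ccl5 and Ltb, and lie at or near the 5′ end alone in Ccl4, Lta and Flt3l.

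On the longest coding transcript of each gene, 14 of the 16 peaks could be placed by the centre of their exonic part. The 3′ UTR held 6 centres (42.9%), the coding sequence 5 and the 5′ UTR 3, whereas 56.5% of the 15715 placed peaks of the whole list were centred in the 3′ UTR. The centre lay within 200 nt of the stop codon in 5 peaks (35.7%), against 22.3% of all placed peaks. The stop codon itself lay in 5 peaks, those of Ifng, Ltb, Xcl1, Ccl3 and Ccl5, against 20.4% of all placed peaks. These 5 held the whole 3′ UTR of their gene.

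Peaks of these genes often reached a gene end. The first base of the gene was the first of the peak in 6 of 16 (37.5%), against 16.2% of all peaks with a known gene. The last base of the gene was in 7 (43.8%), against 21.6%. Xcl1 alone had a peak that did both. A single peak, that of Xcl1 on Gm20743, overlapped no exon of its gene, as did 2.90% of all peaks. The deposited region labels named 7 peaks 5′ UTR, but the middle exonic base of 4 of these lay in coding sequence.

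The share of the transcript inside peaks separated the genes further. It was 100% in Xcl1, 88.0% in Ccl5, 78.1% in Ifng and 57.7% in Ccl3. It was 36.5% in Ccl4, 34.7% in Tnf and 31.8% in Ltb. In Lta it was 10.7%, in Flt3l 8.91% and in Csf2 7.5%. The median over all 9609 transcripts with a placed peak was 12.1% (interquartile range 5.45 to 28.2), so 7 of the 10 genes lay above the upper quartile. The transcripts were between 523 nt (Xcl1) and 1639 nt (Tnf) long, and the 2 shortest, Xcl1 and Ccl5, had the largest shares.

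DRACH sites were numerous under the peaks, as they were in the whole list. On the transcript strand and with overlaps counted, the 14 placed peaks held 100 DRACH sites in 3883 nt, or 25.8 per kb (95% exact Poisson interval 21.0 to 31.3, counting error only), against 20.2 per kb over all placed peaks. The interval counts each site as an independent event, although 21 of the 100 lay in an Ifng peak, and the difference was not tested. In the 100 nt around the peak centre, cut at transcript ends, a DRACH site was present in 12 of 14 peaks, against 84.1% of all. The exceptions were the 5′ peak of Ccl5 and the peak of Flt3l. A GGAC core was present there in 6 of 14, against 33.8%, and GGACT, a frequent m6A sequence, in 5 of 14, against 10.8%. The 5 were the 5′ UTR peak and the 60 nt peak of Tnf and the peaks of Xcl1, Ccl3 and Ltb, as read from the sequences above for the last 3. In the 60 nt peak of Tnf the GGACT lay across the peak edge, with GGA inside the peak and CT outside.

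The genes differed in how many of their DRACH sites lay in a peak. In Xcl1 this was 16 of 16, in Ccl5 7 of 7 and in Ifng 29 of 33. In Ccl3 it was 15 of 24, in Tnf 16 of 35, in Ltb 9 of 22 and in Ccl4 4 of 11. In Lta, Flt3l and Csf2, the genes of few covered bases, it was 2 of 34, 1 of 27 and 1 of 22. Such a count grows with the covered share of a transcript and is no measure of methylation at a given site.

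AU-rich pentamers were denser under these peaks than in the whole list. The 14 peaks held 21 ATTTA pentamers, 5.41 per kb, against 1.24 per kb over all placed peaks. The exact Poisson interval, made as for the DRACH sites, was 3.35 to 8.27 and counts each pentamer as an independent event. The pentamers overlapped and clustered, with 8 in a Tnf peak, 6 in an Ifng peak and 5 in the Ccl3 peak. The interval therefore understates the spread between peaks, and the difference from the whole list was not tested. The longer TATTTA was found 18 times, 4.64 per kb against 0.430. The pentamers lay in 5 peaks, those of Ifng, Tnf, Csf2, Xcl1 and Ccl3. In the 100 nt around the centre they were present in 2 of 14 peaks, Csf2 and Ccl3, against 9.47% of all. For Csf2 this window reached beyond the 60 nt peak and held 6 pentamers, of which 1 lay in the peak itself.

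By gene, the AU-rich pentamers were either all in peaks or all or nearly all outside. Peaks held 6 of 6 in Ifng, 8 of 8 in Tnf, 5 of 5 in Ccl3 and 1 of 1 in Xcl1. In Ifng, Ccl3 and Xcl1 every pentamer lay in the 3′ UTR, which a peak covered whole. In these genes the count therefore followed from the covered bases. In Csf2, whose 3′ UTR carries 9 of its 10 pentamers, the peak of 60 nt held 1. The 3 pentamers of Lta and the 2 of Ccl4 lay outside peaks, at the opposite end of the transcript. Ccl5, Ltb and Flt3l had 0 pentamers in their transcripts. Among the genes with more than 1 peak, Ifng, Tnf and Xcl1 had their pentamers in the peak of lowest p-value.

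**Figure D3:**
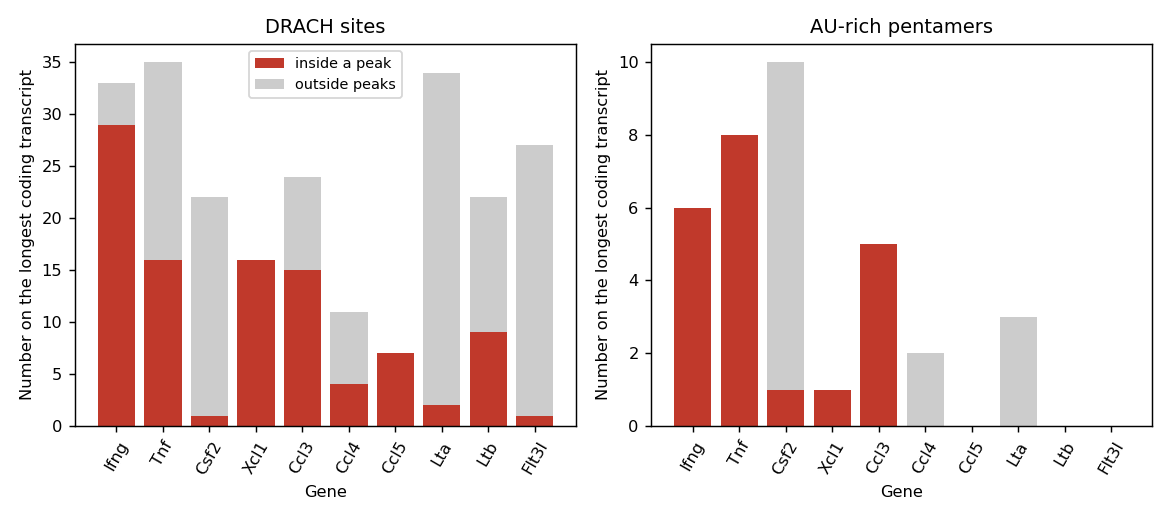
Number of DRACH sites (left) and ATTTA pentamers (right) on the longest coding transcript of each gene, stacked as sites inside a peak (red) and outside peaks (grey). All DRACH sites of Xcl1 and Ccl5 and all pentamers of Ifng, Tnf, Xcl1 and Ccl3 are inside peaks, whereas 9 of the 10 Csf2 pentamers are outside.

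The receptors of these cytokines carried peaks of mostly low fold enrichment. Of 14 receptor genes, 13 had a peak and Csf2rb2 had none, and the median over their 28 peaks was 1.53. The interferon-γ receptor chains Ifngr1 and Ifngr2, the TNF receptors Tnfrsf1a and Tnfrsf1b and the lymphotoxin-β receptor Ltbr all had peaks. The exception in size was Flt3, the receptor of Flt3l, with a fold enrichment of 51.2 at a log10 p of -11.2. The lowest p-value among receptors, a log10 p of -58.6 at a fold enrichment of 1.61, was that of Ccr3, a receptor of Ccl5, which also had the most peaks with 6.

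Genes for proteins that bind AU-rich elements and govern cytokine mRNA decay had peaks in 15 of 17 cases, all but Zc3h12c and Zc3h12d, with 40 peaks in all and a median fold enrichment of 1.98. A fold enrichment of at least 5 was found in 5 of the genes. This was 33.3% of those with a peak, against 43.4% of all protein-coding genes with a peak. The highest fold enrichment was 42.7 at Rc3h2, which encodes roquin-2, with a log10 p of -21.5. Zfp36, which encodes tristetraprolin, had the most peaks with 6 and the lowest p-value, a log10 p of -98.3 at a fold enrichment of 1.70.

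Among other cytokine and chemokine genes, 22 of 53 had a peak. Their 33 peaks had a median fold enrichment of 2.30, and 7 of the 22 genes had a peak of at least 5. That was 31.8%, against 43.4% of all protein-coding genes with a peak. The T cell cytokines Il2, Il4, Il5, Il13, Il17a and Il22 were among the 31 genes without a peak. The highest fold enrichment was 9.48, shared by Ccl25, Cxcl12 and Cxcl13, with the same log10 p of -1.69 as Csf2 and Lta. The lowest p-value was that of Il27, a log10 p of -114 at a fold enrichment of 8.77, and Fasl, a death ligand, had the most peaks with 3. The 10 genes were picked as known NK cell products, and the difference from the other cytokines was not tested.

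**Figure D4:**
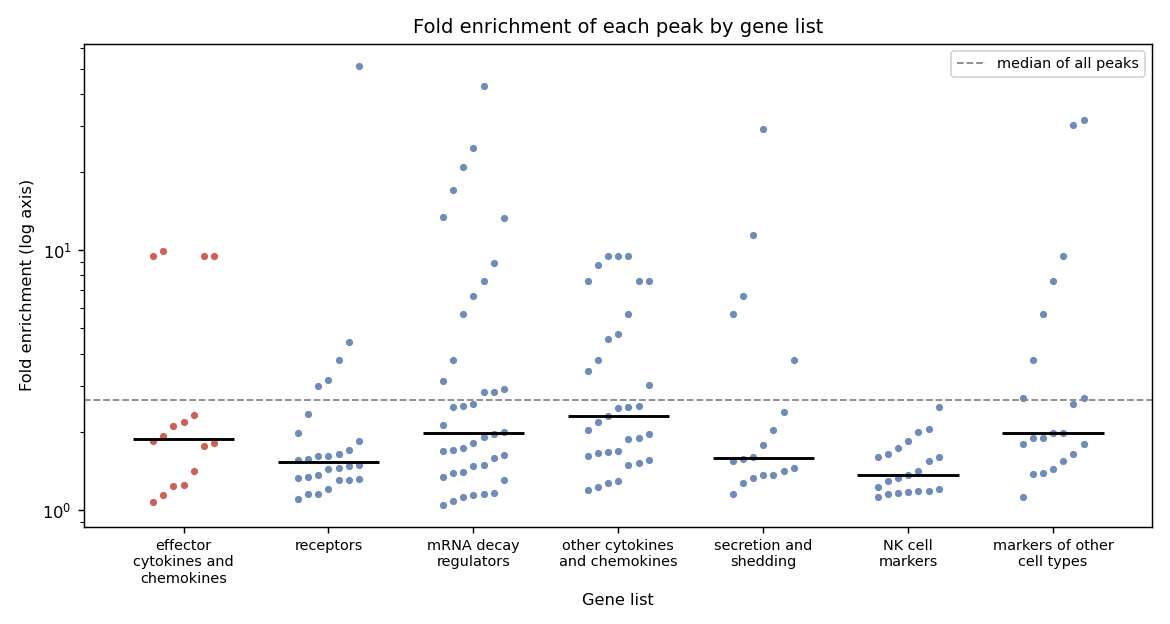
Fold enrichment (vertical, log axis) of every peak in the 10 effector cytokine and chemokine genes (red) and in 6 other gene lists (blue), with the median of each list as a black bar and the median of all peaks, 2.66, as a dashed line. The medians of all 7 lists lie below the dashed line, with the NK cell markers lowest at 1.36.

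Genes listed as markers of NK cells and genes listed as markers of other blood cells both had peaks. Which cells the RNA of these genes came from was not tested. All 8 NK cell marker genes had a peak, with 21 peaks and a median fold enrichment of 1.36. None was at 5 or more, against 34.6% of all peaks. Among these markers the highest fold enrichment was 2.50 at Klrd1. The lowest p-value was that of the granzyme gene Gzmb with a log10 p of -165, and Klrk1 had the most peaks with 5. Of 17 markers of other blood cells, 13 had a peak. The B cell gene Ms4a1 and the T cell genes Cd4 and Cd8a were among those without a peak. The B cell genes Cd79a and Cd79b had peaks of 7.59 (log10 p -9.11) and 2.69 (-27.6). The T cell genes Cd3d and Cd3e had peaks of up to 5.69 (log10 p -1.63) and 30.3 (-6.35). The Cd3d peak of lowest p-value had a fold enrichment of 2.55 at a log10 p of -9.43. All 6 myeloid markers had a peak, namely Csf1r (log10 p -322), S100a8 (-306), Lyz2 (-143), S100a9 (-124), Itgax (-121) and Adgre1 (-35.3), at fold enrichments of at most 1.90. The T cell receptor chain Cd3g had 4 peaks and a fold enrichment of up to 31.6, at a log10 p of -19.3. The red cell gene Hbb-bs, whose reads may be split with a closely similar globin gene, had a peak of 2.69 with a log10 p of -2440. Ltb and Lta are also made by T and B cells, Ccl5 by T cells, and Tnf, Ccl3 and Ccl4 by myeloid cells, and the part of such cells in the peaks was not tested. A peak gives no expression level, and fewer cells of a type and less RNA per cell cannot be told apart in such a bulk list.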

How the data were processed

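The authors trimmed reads, aligned them with HISAT2 (1.0 in the submitters' processing notes) to GRCm38, called peaks with exomePeak and annotated them with ChIPseeker (1.0). The deposited fold enrichment is a ratio of immunoprecipitate to input reads, and the deposited significance is a score, the log10 of the unadjusted peak-calling p-value. Both hold 1 value per peak for the 4 libraries. How the replicates were combined is not given in the sources used here, and 0 columns gave a value per library.

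Of 20751 deposited entries, 24 exact repeats were dropped. Genes were taken from the Ensembl identifier of each peak, of which 12332 of 12351 were in the GENCODE M21 annotation. Peak positions are those of the middle exonic base on the longest protein-coding transcript, found for 15715 peaks (75.8%). The coding sequence includes the stop codon. Motifs were counted on the transcript strand. Python 3.11.15, pandas 2.3.3, NumPy 2.4.6 and SciPy 1.17.1 were used, and placement and motif counting were tested on simulated data. No test was run, because the list has no replicate values.

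All 10 genes were named. From each other list the peak of highest fold enrichment, the peak of lowest p-value and the gene with most peaks were named, along with genes sharing exons with a member peak and genes listed without a peak. Further receptor genes, T cell cytokines, blood cell markers, Cxcl12, Cxcl13 and Adam17 were named after their values were seen. The members and lists were chosen with earlier results of these data known. Alternatives changed the fold and p-value thresholds, the placement, the stop codon window and the motif.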

Additional observations from a re-analysis of the deposited data

How the results depend on the processing

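Of 24 alternatives over 8 results, 18 left the value within 1.5 times of the reported one and 6 did not. With a fold enrichment of at least 2 required, 7 of the 16 peaks were left, and 7 rather than 4 genes passed when the threshold of 5 was lowered to 2. The count of 5 peaks near the stop codon was 2 within 100 nt, 9 within 400 nt and 8 when any base of the peak could lie within 200 nt. Counting GGAC in place of DRACH gave 4.64 rather than 25.8 sites per kb, by construction, since GGAC is the narrower motif. Of the other alternatives, a p-value under 0.001 left 13 peaks in 8 genes, and leaving out the peaks off the exons of their gene or wholly shared with another gene, chosen after seeing the data, left 14 peaks in 9 genes with the median fold enrichment at 1.88. No paired analysis was possible because the list names no library, and for the same reason no replicate could be left out. The depth is unknown, so a gene without a peak may lack reads or the mark, and these were not told apart.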

Other observations

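Genes of cytokine secretion and shedding, which carry the messengers to the cell surface or cut them from it, also had peaks. Of 11 genes, 9 had 18 peaks with a median fold enrichment of 1.59, and Rhbdf1 and Vamp3 had none. A fold enrichment of at least 5 was found in 4 genes, 44.4% of those with a peak. This lay near the 43.4% of all protein-coding genes with a peak. The highest fold enrichment, 29.4 with a log10 p of -46.6, was that of Stx4a, a syntaxin of the plasma membrane, which also had the most peaks with 4. That peak, chr7:127824294-127842029, held 390 nt of Stx4a exon, and whether it overlapped exons of other genes was not examined. The other Stx4a peaks had fold enrichments between 1.15 and 1.33. Adam17, the protease that sheds tumour necrosis factor, had a peak of 1.78 with a log10 p of -21.5.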
